A study of Saccharomyces cerevisiae with 24 samples.

Results

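The 56 genes described here encode the proteins of the small subunit of the cytosolic ribosome in budding yeast, Saccharomyces cerevisiae. They were taken by name, from RPS0A to RPS31. All 56 were among the 6575 open reading frames (ORFs) of the RNA table, and 43 were among the 4427 genes of the promoter and nucleosome tables. The set held 8 single-copy genes (among them RPS2, RPS3, RPS12, RPS13, RPS15, RPS20 and RPS31) and 48 genes that form 24 A and B pairs, so that 32 proteins were represented. The other 13 genes, 4 of them single-copy (RPS12, RPS15, RPS20 and RPS31), were not analysed for chromatin here.

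The small subunit binds messenger RNA, selects the start codon and reads each codon against its transfer RNA. In yeast its proteins are made from some of the most heavily transcribed genes of the cell, most of them kept as duplicates from an ancient doubling of the genome. Their transcription depends on Rap1, Fhl1, Ifh1 and Sfp1, responds to the growth-controlling kinase complex TORC1, and is known to be shut down when yeast meets many kinds of stress.

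The cells were W303, a common laboratory strain, of mating type MATa, with a mutant LEU2 marker gene, the marker allele trp1-1, the canavanine resistance allele can1-100, and also ura3-1, ade2-1 and his3-11,15. Every group shared this genotype and growth in rich medium. Cultures were sampled before cadmium chloride was added (0 min) and again 7.5, 15, 30, 60 and 120 min after its addition to 1 mM; cadmium is a toxic metal that binds thiol groups. RNA was sequenced, and chromatin was cut with micrococcal nuclease (MNase), which digests DNA that is not covered by protein. The samples hold no untreated culture at the later times, so cadmium and time in culture cannot be told apart.

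The labels list 12 RNA and 12 chromatin samples, 2 for each time and assay, and the series describes the chromatin replicates as technical. Each deposited table has 1 column per time point, and how the replicates entered it is not given in the sources used here. Every value below is therefore the authors' single value for a time point, no test could be made, and every change shares the same 0 min column. The RNA columns corresponded to between 31543389 and 33946107 reads, of which the 56 genes held 2757508 at 0 min and 84608 at 120 min. Where 6 values follow each other they are in the order 0, 7.5, 15, 30, 60 and 120 min, and 5 values are in the order of the treated times. The promoter columns summed to between 653634 and 1050068 fragments. Counting alone gave errors of 0.00475 to 0.107 on the log2 RNA changes of single genes, and these errors leave out all differences between cultures.

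The RNA of the small-subunit genes was little changed at 7.5 min and then dropped through 60 min, to a small remnant. Together the 56 genes held 13.7% of all TPM (reads corrected for gene length and scaled to the same total in every column) at 0 min and 13.1% at 7.5 min. Later their share was 7.59%, 2.71%, 0.732% and 0.481%. The median gene had 1503, 1427, 822, 296, 75.5 and 52.5 TPM over the time course. In whole cultures a lower level in every cell and a loss of the RNA from only some of the cells cannot be told apart, and TPM reports a share of the RNA rather than an amount per cell.

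On the scale of log2(TPM + 1), the median difference from 0 min was -0.07, -0.89, -2.37, -4.23 and -4.84 over the treated times. The value at 7.5 min changed sign, to 0.066, when columns were rescaled by their median ratio, so no direction is given for it. The median of all ORFs that averaged 1 TPM or more, 5965 in number, moved by -0.10, 0.11, 0.35, 0.44 and 0.34 at the same times. Relative to that median, the small-subunit genes differed by 0.02, -0.996, -2.72, -4.67 and -5.18.

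At 7.5 min none of the 56 genes had a log2 change of -1 or below, and 1.74% of the 5965 ORFs did. At 15 min 17 of the 56 were past that threshold, against 12.6% of ORFs, and 28 were when columns were rescaled by their median ratio, against 14.6% of ORFs. At 30 min 55 were, against 16.7%, and the exception was RPS30A at -0.97. All 56 were past it at 60 min, against 18.5% of ORFs, and at 120 min, against 20.2%. From 15 min on, each of the 56 genes was below its own level at 0 min.

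The steps between neighbouring times, which cover unequal lengths of time, had medians of -0.82 from 7.5 to 15 min, -1.47 up to 30 min, -1.88 up to 60 min and -0.57 over the last hour. The drop per step was largest between 30 and 60 min. During the last hour only RPS25B and RPS27A did not go lower, with steps of 0.02 and 0.04. Both steps were smaller than the counting errors of their changes from 0 to 120 min, 0.0399 and 0.0521. RPS27A, 1 of the copies encoding a zinc-binding protein of the subunit, had levelled off at 49.6 TPM at 60 min and 50.9 TPM at 120 min.

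**Figure D1:**
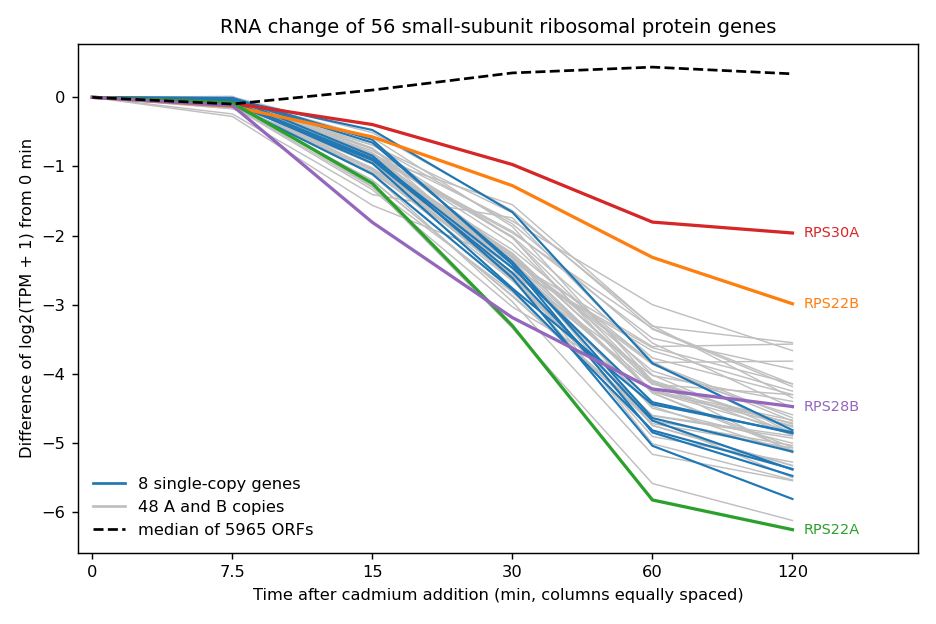
Difference of log2(TPM + 1) from 0 min (vertical axis) at each time after cadmium (horizontal axis, columns equally spaced) for the 56 genes; blue lines are the 8 single-copy genes, grey lines the A and B copies, coloured lines named copies, and the dashed line the median of 5965 ORFs. The 56 lines go down together after 7.5 min while the dashed line stays between -0.10 and 0.44, and RPS30A (-1.80 at 60 min) and RPS22A (-5.83) lie at the edges.

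Among the single-copy genes, RPS31 was the most abundant of all 56 before cadmium, also with the RefSeq spans described below. It encodes a fusion of ubiquitin with a small-subunit protein (YLR167W, chromosome XII, 498947 to 499405 in the R64 assembly), and had 10636, 10576, 6944, 1988, 368 and 238 TPM over the time course. It dropped at every step after 7.5 min.

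RPS2 (YGL123W) and RPS3 (YNL178W) encode neighbouring proteins at the entrance of the messenger channel. RPS2 had 8364, 7998, 4315, 1231, 384 and 290 TPM over the time course. RPS3 had 6150, 6096, 3423, 1004, 186 and 109 TPM at these times. RPS3 started below RPS2 and ended at -5.04 at 60 min, the lowest change of the 8 single-copy genes, against -4.44 for RPS2.

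RPS15 (YOL040C) and RPS20 (YHL015W) encode proteins of the head of the subunit, and RPS15 reaches the site where codons are read. RPS15 had 7657, 7359, 4155, 1386, 359 and 263 TPM over the time course. RPS20 started at nearly the same level, 7647 TPM, and had 7469, 5509, 2416, 530 and 271 TPM at the later times. RPS20 was thus the slowest of the single-copy genes, with -3.85 at 60 min, and by 120 min it was close to RPS15. It had the highest deposited TPM of all 56 genes at 60 min, a rank that depends on the gene lengths described below.

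RPS12 (YOR369C) encodes a protein of the head of the subunit, and RPS13 (YDR064W) a protein of its platform. RPS12 had 7143, 7012, 4535, 1370, 285 and 204 TPM over the time course. RPS13 had 2139, 1986, 989, 309, 74.8 and 50.5 TPM. RPS13 was the lowest single-copy gene at every time, and it is the single-copy gene that carries an intron. TPM here rests on the span of the gene, introns included, which lowers the values of genes with introns relative to genes without.

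At the median, single-copy genes were more abundant than summed pairs, and their decline at 60 and 120 min was larger. At 0 min the median single-copy gene had 7652 TPM and the median pair, with A and B summed, 3002 TPM. The ratio of these medians, 2.55 before cadmium, was highest at 15 min (3.04) and lowest at 120 min (2.24). In reads, which are not divided by length, the gap was smaller. The median single-copy gene had 114394 reads at 0 min and the median pair 69097, and at 60 min they had 4266 and 3175.5. TPM is divided by spans that include introns, and the part of length in the ratio was not tested. Of the 10 genes with the highest TPM at 0 min 7 were single-copy, and at 60 min 5 were.

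The median change of the single-copy genes was -0.05, -0.86, -2.50, -4.66 and -5.25 over the treated times. That of the 48 copies was -0.08, -0.90, -2.36, -4.14 and -4.76. The difference, single-copy less copies, was 0.04, 0.04, -0.14, -0.52 and -0.49. At 60 min 7 of the 8 single-copy genes were below the median of the copies, and the exception was RPS20. With each pair summed to its protein, the differences at 60 and 120 min were -0.50 and -0.43. The groups overlapped widely, since the copies ranged from -5.83 to -1.80 at 60 min and the single-copy genes from -5.04 to -3.85. Genes are not replicates, and these differences are descriptions of single columns.

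The RNA levels of the 32 proteins were relatively more spread at 15 and 30 min than before cadmium. The coefficient of variation of TPM per protein was 61.5%, 63.2%, 70.9%, 71.2%, 66.3% and 63.4% over the time course. Among the pairs it was 54.3% at 0 min and 73.9% at 60 min, and among the single-copy genes 33.8% and 43.3%. In deposited TPM the highest protein was RPS31 through 15 min and from 30 min RPS1, the summed pair of a protein near the exit of the messenger channel. RPS6, a phosphorylated protein whose modification follows TORC1 activity, was the lowest at each of the 6 times. In deposited TPM the highest protein had 10.01 times the TPM of the lowest at 0 min and 11.5 times at 60 min.

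Levels of 9 genes need a further caution. For 47 of the 56 genes, the deposited TPM corresponds to whole reads when the RefSeq span is used as the length. For RPS8A, RPS8B, RPS22B, RPS25A, RPS25B, RPS26A, RPS26B, RPS29A and RPS29B it did so only with a length 1.52 to 3.88 times longer. RPS29A, for instance, spans 171 bp in RefSeq, and the values correspond to 664 bp. The TPM of these 9 genes is lower by that factor than the same reads would give over the RefSeq span. Their changes over time are not affected by this division, apart from a small effect of the pseudocount. Values called here with RefSeq spans are the same reads divided by the RefSeq span. Reads outside that span could not be left out, and columns were not scaled again to the same total. These values are therefore not those of a new count. Ranks by level do depend on the length used. With RefSeq spans RPS26 was the highest protein from 0 to 60 min, with 11349 TPM at 0 min against 10636 for RPS31, and RPS25 at 120 min, while RPS6 was still the lowest. At 60 min RPS26A (724 TPM) and RPS25A (590 TPM) were then above RPS20. The coefficient of variation with these spans was 61.7% at 0 min and 76.5% at 60 min. The span of RPS22B overlaps a small nucleolar RNA gene, SNR44, and whether the counting used strand is not given in the sources used here.

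**Figure D2:**
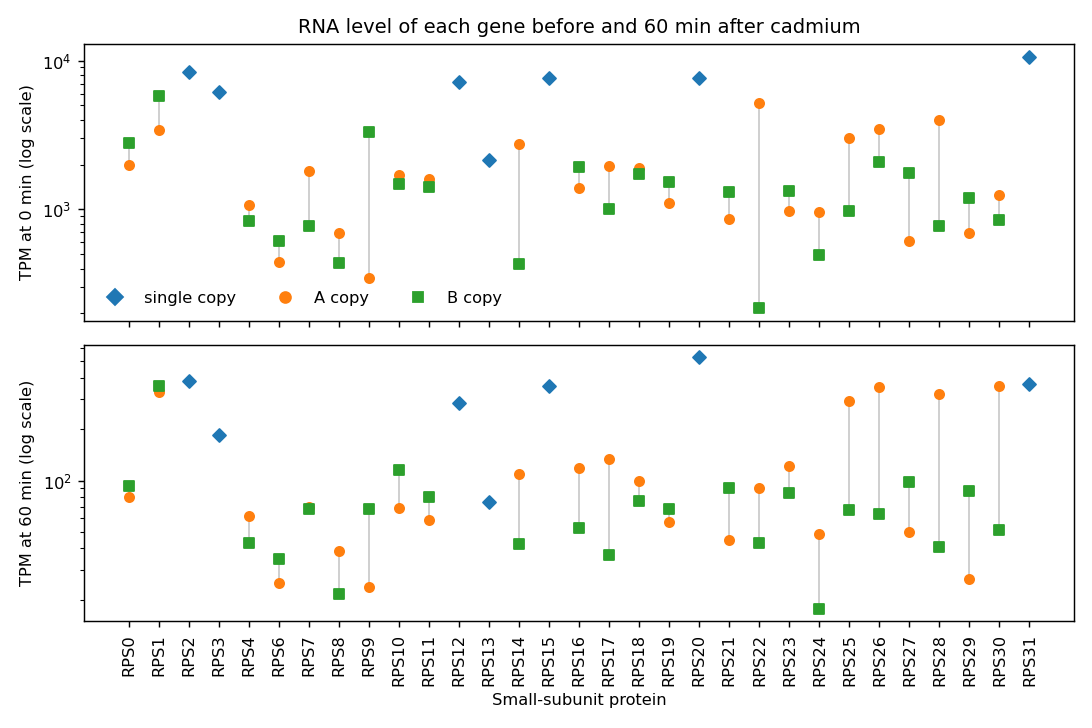
TPM of each gene (vertical axes, log scale, which differ between panels) at 0 min (top) and 60 min (bottom) for the proteins reported by name (horizontal axis); diamonds are single-copy genes, circles A copies and squares B copies, with a line joining the copies of a pair. Single-copy genes other than RPS13 lie near the top at 0 min, from 6150 to 10636 TPM, and at 60 min copies such as RPS30A (359 TPM) have reached the same range.

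The changes at 60 min spanned from -5.83 to -1.80. RPS22A (YJL190C, chromosome X, 74910 to 75302) had the largest decline; it had 5148, 4868, 2171, 520, 89.8 and 66.4 TPM over the time course. Its protein binds the central domain of the ribosomal RNA. RPS9B, encoding a protein that affects the accuracy of decoding, was next at -5.59, with 3303, 3166, 1351, 325, 67.7 and 46.4 TPM over the time course. RPS16B followed at -5.17, with 1930 TPM at 0 min and 52.8 at 60 min.

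RPS30A (YLR287C-A, chromosome XII, 712537 to 713158) had the smallest decline of the 56, with -1.80 at 60 min and -1.96 at 120 min. It had 1257, 1185, 957, 640, 359 and 322 TPM over the time course. At 120 min it had the highest deposited TPM of the 56 genes, but with RefSeq spans RPS26A (350 TPM) and RPS25A (337 TPM) were above it. RPS22B had -2.32 at 60 min, with 217, 198, 146, 89.0, 42.8 and 26.5 TPM over the time course. RPS23A, 1 of the copies for a protein of the decoding centre, had -3.00, with 982 TPM at 0 min and 122 at 60 min. RPS22B had the lowest deposited TPM of the 56 at 0 min, but with RefSeq spans it had 357 TPM and RPS9A, with 348 TPM, was lower.

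RPS28B, named after its values were seen, stood out by its decline at 15 min. Its own protein is known to bind the end of the RPS28B messenger and promote its decay. It had 775, 713, 220, 84.2, 40.6 and 33.9 TPM over the time course. Its change at 15 min, -1.81, was the lowest of the 56, while at 60 min, with -4.22, it was close to the median. Across the 56 genes, the Spearman correlation of TPM at 0 min with the change at 60 min was -0.35; both use the 0 min column.

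Within pairs, the balance of A and B shifted by up to 3.51 on the log2 scale in a few proteins and hardly in others. The log2 ratio of A to B had changed by at least 1 in none of the 24 pairs at 7.5 or 15 min, in 5 at 30 min, and in 7 at 60 and at 120 min. The median absolute change was 0.04, 0.19, 0.47, 0.64 and 0.65 over the treated times. Copies of a pair are often near identical in their coding sequence. How reads that match both were counted is not given in the sources used here, and its part in these ratios was not tested.

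RPS22 changed most. The A copy made 96.0% of the pair's TPM at 0 min, 96.1%, 93.7%, 85.4%, 67.7% and 71.5% over the treated times, and its log2 ratio to B had moved by -3.51 at 60 min. The pair thus held both the largest decline, that of RPS22A, and the second smallest, that of RPS22B. The RPS22B value also carries the longer length and the overlap with SNR44 given above, and the part of reads from SNR44 was not tested.

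RPS30 shifted towards the A copy, by 2.44 at 120 min. RPS30A made 59.8% of the pair at 0 min, 61.0%, 69.9%, 81.6%, 87.6% and 89.2% over the treated times. RPS30B, the other copy, had 846 TPM at 0 min and 51.0 at 60 min, a change of -4.02 that is near the median of the 56 genes. RPS30A was the copy that departed from the median.

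RPS9, after RPS22 the most uneven pair before treatment, shifted towards the scarce A copy. RPS9A made 9.53%, 8.50%, 8.81%, 24.1%, 25.9% and 19.1% over the time course, a change of the log2 ratio of 1.76 at 60 min. Nearly all of this shift came between 15 and 30 min, when RPS9A had 131 and then 103 TPM while RPS9B went from 1351 to 325 TPM.

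RPS26 encodes a protein that contacts the messenger upstream of the start codon and can be removed from the ribosome under some stresses. RPS26A made 62.5% of the pair at 0 min, 61.6%, 63.2%, 74.6%, 84.7% and 79.4% over the treated times, with a log2 change of 1.71 at 60 min. The other pairs past 1 at 60 min were RPS16 (1.61), RPS14 (-1.32) and RPS7 (-1.18), named after their values were seen. In 5 of the 7 pairs the copy that was scarcer at 0 min had declined less at 60 min.

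Over all 24 pairs the scarcer copy had declined less in 13 at 60 min and more in 11. The more abundant copy was a different one at 60 min than at 0 min in 4 pairs. RPS6 and RPS18 kept their balance most closely. RPS6A made 41.8% of its pair at 0 min, 42.0% at 60 min and 41.3% at 120 min. RPS18A made 52.3%, 56.6% and 56.8% at those times, and its protein lies in the head of the subunit.

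**Figure D3:**
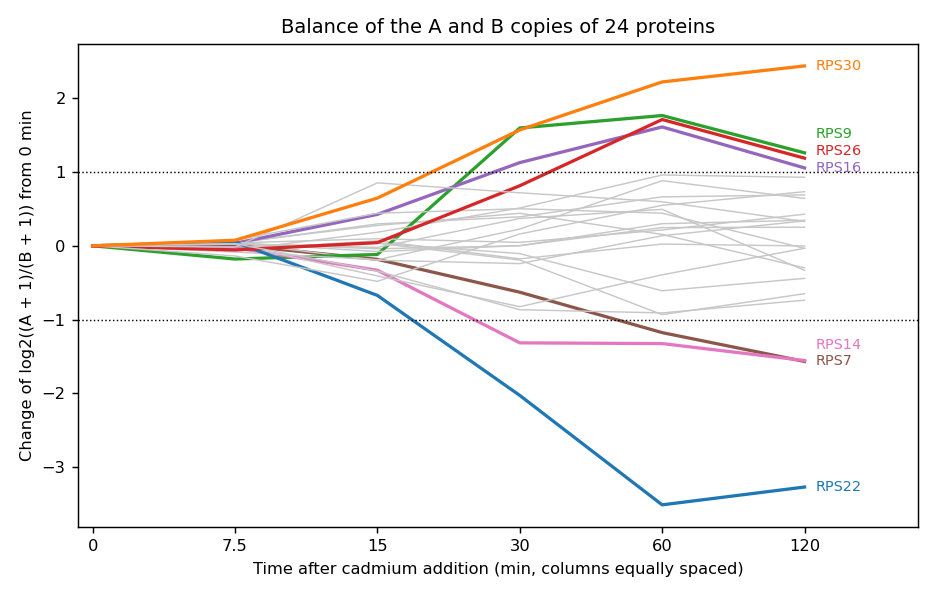
Change of the log2 ratio of A to B from 0 min (vertical axis) at each time (horizontal axis, columns equally spaced) for the 24 pairs; coloured lines are the 7 pairs that passed 1 in either direction (dotted lines), and grey lines the other pairs. RPS22 reaches -3.51 at 60 min and RPS30 2.44 at 120 min, outside the range of the other pairs.

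At the promoters of the 43 genes with chromatin values, small MNase fragments, which mark DNA covered by proteins smaller than a nucleosome such as transcription factors, changed far less than RNA. At 0 min 41 of the 43 promoters were above the median of all 4427 promoters, with a median of 293 fragments against 151. The median count of the 43 was 259, 248, 292, 274 and 322 over the treated times. At 60 min 36 of the 43 were still above the median of all promoters, which had reached 202 fragments.

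On the scale of log2(fragments + 63), the median change was -0.12, -0.15, 0.02, 0.00 and 0.18 over the treated times. All promoters together had medians of -0.09, 0.01, 0.12, 0.28 and 0.40, and the column totals went up from 7.5 min on. When each column was divided by its median, the small-subunit medians were -0.01, -0.19, -0.14, -0.33 and -0.33, so the sign at 30, 60 and 120 min depends on this scaling. At 60 min 39 of the 43 promoters were below the median change of all promoters, and at 120 min 42 were. Counting errors of single promoters were 0.0813 to 0.128.

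No promoter of the 43 was lower by at least 0.5 at 7.5 min, where 0.248% of all promoters were. At 15 min 2 were, against 0.768%. At 30 min 5 were, against 0.791%, and there were also 5 at 60 min, against 0.632%, and 5 at 120 min, against 0.768%. With columns divided by their median, the counts at 60 and 120 min were 9 and 10, against 2.37% and 3.32% of all promoters. None of the 43 was higher by at least 0.5 at 30, 60 or 120 min, where 4.13%, 14.3% and 32.4% of all promoters were.

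RPS0A (YGR214W, chromosome VII, 920575 to 921788), which encodes a protein needed to mature the ribosomal RNA of the subunit, had the lowest promoter change at 60 min. Its fragments numbered 338, 250, 163, 167, 75 and 115 over the time course, a change of -1.54 at 60 min. Its partner RPS0B had 291 fragments at 0 min and 274 at 60 min, a change of -0.07, although the RNA changes of the 2 copies at 60 min were -4.61 and -4.91. The gene upstream of RPS0A, RTA1, is transcribed away from it from a start 1109 bp away and had 0.992 TPM at 0 min and 45.7 TPM at 60 min. The extent of the promoter window is not given in the sources used here, and the part of RTA1 in these counts was not tested. Of the 43 genes 27 have an upstream neighbour that is transcribed away from them.

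RPS7A (YOR096W) had 194, 162, 159, 118, 69 and 69 fragments over the time course, with -0.96 at 60 min. Its upstream neighbour RKI1, transcribed away from it, had 210 TPM at 0 min and 4.29 TPM at 60 min. The part of RKI1 in these counts was not tested. RPS24B (YIL069C) had 349, 325, 255, 224, 171 and 188 fragments, with -0.82. RPS2 had 359, 257, 246, 235, 209 and 226 fragments, with -0.63. These promoters lost fragments mostly after 7.5 min, except RPS2, where the largest step was the first. RPS17B, the other gene past 0.5 at 60 min, had 275 fragments at 0 min and 156 at 60 min.

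The highest promoter changes at 60 min were those of RPS22B (0.38), RPS9B (0.33), RPS29B (0.33) and RPS19B (0.32), close to the median of all promoters. RPS9B had 330 fragments at 0 min, 346 at 15 min and 431 at 60 min, while its RNA had the second largest decline of the 56. RPS26A had the lowest counts of the 43, 52 at 0 min and 50 at 60 min. Across the 43 genes, the Spearman correlation of RNA and promoter changes at 60 min was 0.40, a description over genes that share the 0 min columns. It was -0.25, -0.15, 0.20 and 0.19 at 7.5, 15, 30 and 120 min.

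**Figure D4:**
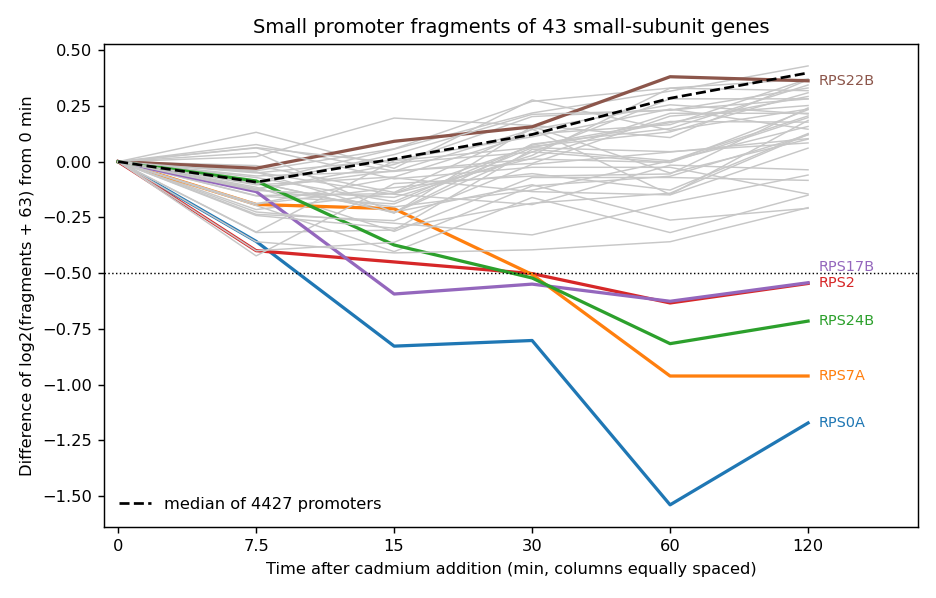
Difference of log2(fragments + 63) from 0 min (vertical axis) at each time (horizontal axis, columns equally spaced) for the 43 promoters; coloured lines are the 5 genes lower by 0.5 at 60 min (dotted line) and RPS22B, and the dashed line is the median of 4427 promoters. RPS0A reaches -1.54 at 60 min, and 39 of the 43 lie below the dashed line at that time.

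Over the gene bodies, the nucleosome disorder score of most small-subunit genes was lower after cadmium, already at 7.5 min. The authors' entropy score is higher where nucleosome positions are less organised. At 0 min all 43 genes were above the median of the 4427 gene bodies, with a median of 7.09 against 6.61. The median of the 43 was 6.91, 6.70, 6.69, 6.64 and 6.70 over the treated times. At 60 min it equalled the median of all gene bodies, 6.64.

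The median difference from 0 min was -0.162, -0.343, -0.389, -0.395 and -0.377 over the treated times. All gene bodies had medians of -0.044, -0.035, -0.013, 0.017 and 0.007. At 7.5 min 31 of the 43 genes were lower by at least 0.1, against 22.4% of gene bodies. At 15 min 37 were, against 27.2%, and at 30 min 36, against 23.4%. At 60 min 37 were, against 20.3%, and at 120 min 39, against 24.4%. The score comes without a count of fragments per gene, so its precision is unknown.

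RPS1A (YLR441C) had the lowest entropy change at 60 min, -0.802, with 6.94, 6.75, 6.37, 6.23, 6.14 and 6.11 over the time course. RPS26B had 7.12, 6.97, 6.54, 6.52, 6.41 and 6.45. RPS10B, whose protein sits at the beak of the subunit, had 7.15, 6.87, 6.59, 6.38, 6.45 and 6.34. RPS3 had 7.14, 6.84, 6.47, 6.54, 6.46 and 6.51, and most of its change was complete at 15 min. All of these genes ended below the median of all gene bodies.

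The nucleosome score of RPS0A moved in the other direction. Its entropy was 6.99, 7.02, 7.21, 7.22, 7.19 and 7.16 over the time course, which is 0.196 above 0 min at 60 min. Its RNA nevertheless declined like that of the other members, with -4.61 at 60 min. The next highest changes at 60 min were those of RPS21B (0.019), RPS25B (-0.016) and RPS18A (-0.036). RPS18A had 6.91, 6.65, 6.64, 6.75, 6.87 and 6.77 over the time course, so after a partial return at 60 min it was lower again at 120 min.

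In 13 of the 19 pairs with both copies measured, both were lower by at least 0.1 at 60 min. Taken singly, 37 of the 43 genes were past that threshold, against 20.3% of all gene bodies. Whether the copies of a pair go together was not tested. The RPS0 pair was split, with 0.196 for RPS0A and -0.179 for RPS0B. For the single-copy genes RPS2, RPS3 and RPS13, the entropy changes at 60 min were -0.563, -0.681 and -0.456. Across the 43 genes, the Spearman correlation of entropy and RNA changes at 60 min was 0.03, and that of entropy and promoter changes was -0.32, again as a description over genes that share the 0 min columns.

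**Figure D5:**
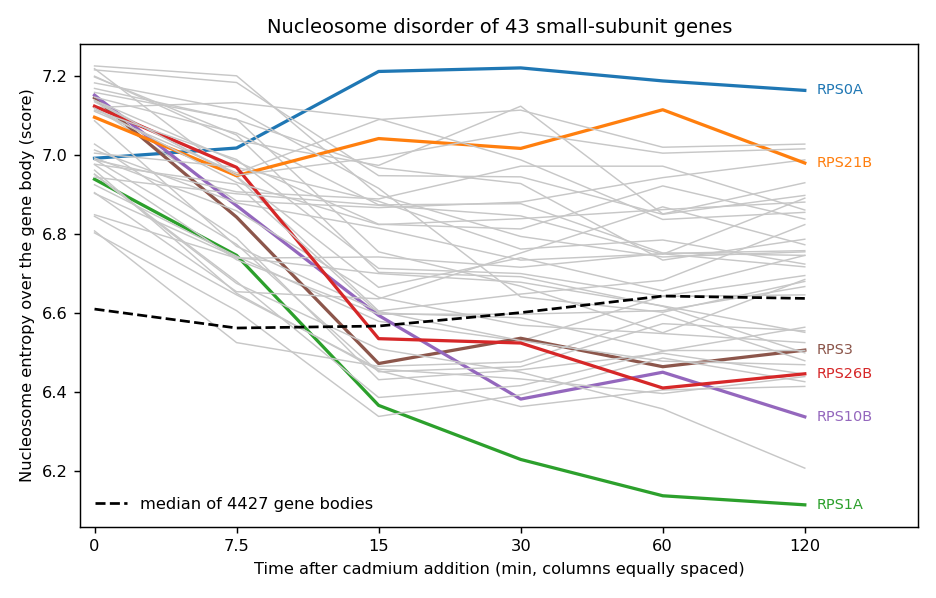
Nucleosome entropy over the gene body (vertical axis, authors' score) at each time (horizontal axis, columns equally spaced) for the 43 genes; coloured lines are named genes and the dashed line is the median of 4427 gene bodies. All 43 start above the dashed line, the median of the 43 equals it at 60 min (6.64), and RPS0A goes up to 7.22 at 30 min.

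Other genes of the same pathway were read beside these. The 81 genes of the large subunit had median RNA changes of -0.06, -0.93, -2.39, -4.27 and -4.85 at 7.5, 15, 30, 60 and 120 min. These were close to those of the small subunit. At 60 min 80 of the 81 were lower by at least 1, against 18.5% of ORFs. Chromatin values existed for 67 of the 81. Their median entropy changes, -0.162, -0.334, -0.369, -0.402 and -0.402, were also close to those of the small subunit. At 60 min 59 of the 67 were lower by at least 0.1, against 20.3% of gene bodies, and these genes too started high, with a median of 7.08. Of their promoters 5 were lower by at least 0.5 at that time, against 0.632% of all promoters. ASC1, which encodes a scaffold protein of the small subunit, changed by -5.53 at 60 min, and STM1, which binds idle ribosomes, by -3.48.

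The 15 genes for small-subunit assembly and dedicated chaperones had lower medians than the 56 up to 30 min, with -0.45, -2.12 and -3.24. Their medians were -2.71 at 60 min and -2.15 at 120 min, when the ribosomal protein genes were still declining. At 15 min 13 of the 15 were lower by at least 1, against 12.6% of ORFs. RPS26's chaperone gene TSR2 changed by -1.98 at 15 min and -4.08 at 60 min. HRR25, a protein kinase with other roles as well, differed by 0.06 at 60 min.

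Among 10 regulators of these genes 4 had a change of -1 or below at 60 min, against 18.5% of ORFs. IFH1, the coactivator of these genes, had 107, 45.6, 16.2, 18.9, 18.1 and 25.1 TPM over the time course. It was already at -1.21 at 7.5 min, and RAP1 and FHL1 were at -1.68 and -1.57 at 60 min. CRF1, a corepressor that competes with Ifh1 for Fhl1 in some strains, had 1.40 TPM before cadmium, 41.5 TPM at 60 min and 217 TPM at 120 min. Whether it acts in this way in W303 was not tested. STB3, a repressor of ribosome synthesis genes, differed by 2.27 at 60 min. HMO1 was at -0.05 at 30 min and -1.17 at 60 min. The rest of the list stayed short of 1 at 60 min, with -0.94 for ABF1, -0.57 for SFP1, -0.46 for SCH9 and 0.51 for TOR1.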

How the data were processed

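Yeast RNA and MNase chromatin were sampled at 6 times. Per the submitters' processing notes, Bowtie 0.12.7 and the builds sacCer3 and R64 were used; other steps are not given in the sources used here. The authors deposited TPM per ORF, whole-number counts of small fragments per promoter, and an entropy score per gene body, each with 1 column per time point. TPM columns were read against RefSeq spans (R64): 99.5% of values came out as whole reads within 0.02 read. Where a span did not give whole reads, the shortest length that did within 0.05 read in all 6 columns, up to 3000 bp, was taken.

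RNA changes were differences of log2(TPM + 1) from 0 min, promoter changes used log2(count + 63), with 63 taken as the 10th percentile over the table, and entropy changes plain differences. Thresholds were 1, 0.5 and 0.1, and 1 for the ratio of copies. Counting errors are 1 standard error and cover counting only. Calculations used Python 3.11.15, numpy 2.4.6, pandas 2.3.3 and scipy 1.17.1, and figures used matplotlib 3.10.9. Only the recovery of reads from TPM and the log2 RNA change were tested on simulated data. Replicate columns would have allowed a model fit; with 1 value per time point no test was made.

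The genes, lists and thresholds were chosen with earlier results of these data known. Genes were named by rule: the single-copy genes, of which 1 is counted in all summaries but not reported here by name; the 3 largest and 3 smallest declines in RNA at 60 min; the 4 pairs that changed most, the 2 most uneven and the 2 steadiest; and the 4 lowest and 4 highest promoter and entropy changes at 60 min. RPP1, a subunit of RNase P, was removed from the large-subunit list, which was taken by symbol. Promoter motifs and the identity of the copies' proteins were not analysed here. Alternatives were another pseudocount, other thresholds, rescaled or quantile normalized columns and other sets of genes.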

Additional observations from a re-analysis of the deposited data

How the results depend on the processing

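No paired analysis was possible because the columns carry no replicate, and leaving out a replicate was not possible for the same reason; the comparison of copies with non-identical proteins was not run. Of 127 values recomputed, none reversed a direction past its threshold and 89 stayed within the limits used. RNA and promoter medians and single-copy less copies were judged by the 95% counting interval of a typical single gene. That is not an interval for a median over genes. The limit was 5 percentage points for the coefficient of variation and 0.02 for entropy medians. The limits for the coefficient of variation and for entropy were chosen after seeing the data. So were the settings with RefSeq spans, without RPS13 and with a ratio threshold of 0.5. Counts were judged by a limit on their ratio, and the log2 ratio of entropy by its sign alone. No reversal could be called for counts, for the coefficient of variation or for single-copy less copies. Nor could it be for medians short of their threshold, which were the RNA medians at 7.5 and 15 min and all promoter medians. Of these, the RNA median at 7.5 min and the promoter medians at 30, 60 and 120 min changed sign with rescaled columns. Rescaling RNA columns by their median ratio gave medians of 0.066, -0.998, -2.71, -4.65 and -5.18 at the 5 treated times and 28 genes lower by at least 1 at 15 min; with a threshold of 2 none was past it then. With a pseudocount of 5 TPM the medians at 60 and 120 min were -4.10 and -4.68, and single-copy less copies was -0.60 and -0.62; without RPS13 it was -0.37 at 120 min. A ratio threshold of 0.5 gave 3, 12, 15 and 13 pairs from 15 to 120 min. The coefficient of variation over single genes was 101, 103, 111, 106, 96.7 and 94.0%, and over proteins with RefSeq spans 76.5% at 60 min and 70.6% at 120 min. Dividing promoter columns by their median gave -0.33 at 60 and at 120 min, with 9 and 10 promoters lower by at least 0.5; a 10 times smaller pseudocount gave 1 at 7.5 min, and a threshold of 1 gave 0, 0, 1 and 1 from 15 to 120 min. Quantile normalized entropy had medians of -0.134, -0.321, -0.441 and -0.407 at 7.5, 15, 60 and 120 min, and 13 genes were lower by 0.2 at 7.5 min. The cause of these shifts was not tested.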
